A study of Mus musculus with 8 samples.

Results

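The 10 genes Elmo1, Elmo2, Elmo3, Dock1, Dock2, Dock5, Dock8, Dock10, Rac1 and Rac2 encode the engulfment machinery that couples cell surface receptors to the GTPase Rac. They are 10 of the 21883 genes annotated as protein-coding. A locus here is the span of a gene with 20 kb on each side, and the 10 loci held 112 of 52177 peak regions, where a region is the stretch covered by overlapping peaks of any of the 8 libraries. The family was chosen from a measured value: in an earlier reading of these data the Elmo1 locus held more peaks in FGR than in control libraries relative to list length, and the other 9 genes were added as its relatives and partners. The numbers and positions of peaks in each group are therefore given as a description, and nothing is supported with a test of a difference between the groups at a member.

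Accessible chromatin had been profiled by ATAC-seq, in which a transposase inserts sequencing adapters into open DNA, in microglia from the hippocampus of mice at 3 weeks after birth. There were 4 libraries from control (Ctrl) animals and 4 from FGR animals, offspring with restricted growth in the womb, and the comparison asks whether that restriction is accompanied by a difference in microglial chromatin. All 8, controls included, carried the genotype Tmem119-tdTomato+/-, a fluorescent reporter at a microglial gene. The labels name neither the way growth was restricted nor the sex of the animals, nor how many animals a library held, so that the spread between libraries, and any p-value resting on it, may be technical in part.

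ELMO proteins bind DOCK proteins to form a joint exchange factor, which loads Rac with GTP and drives actin into the protrusions that surround a dying cell or a synapse. ELMO itself has no exchange activity and acts as the scaffold and the brake of the complex. Dock1, Dock2 and Dock5 encode DOCK-A proteins that pair with ELMO and act on Rac, whereas Dock8 and Dock10 encode members of other DOCK branches that act mainly on Cdc42. Rac1 is found in nearly all cells and Rac2 mainly in blood cells and their relatives, where it also serves the NADPH oxidase of phagocytes. In microglia this machinery serves the clearance of apoptotic cells, surveillance and migration.

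The lists held between 10862 and 24195 peaks in Ctrl and between 23327 and 29501 in FGR, and read totals were not used here. By sample number the libraries form 2 blocks, replicates 1 and 2 of both groups and replicates 3 and 4 of both. Whether the blocks differ in handling was not tested. Ctrl replicates 1 and 2 stood apart, with the 2 shortest lists (16111 and 10862 peaks) and median peak widths of 566 and 522 bp against 353 to 386 bp in the other 6. FGR replicates 1 and 3 had the same summit base in 9.29% of the regions they shared. For FGR replicates 2 and 4 the share was 7.8%, against 0.00707% to 2.22% in the other 26 pairs of libraries. Within Ctrl it was 0.00707% for replicates 1 and 3, 0.0396% for 2 and 4, and 0.934% for 1 and 2. These 2 FGR pairs may therefore not be independent, and values are given for each library. Both FGR pairs hold 1 library of each block. The microglial markers Tmem119, Cx3cr1, Sall1 and Irf8 had a peak within 1 kb of a start site (or of either gene end where no start was listed) in all 8 libraries. Spi1 had one in 7 libraries, Csf1r in 6 and P2ry12 in 1. None of 5 neuronal, 4 astrocytic and 4 monocyte or neutrophil markers had one in any library. Of 4 oligodendrocyte markers only Mbp had one, in 2 libraries of each group. Of 4 vascular markers only Flt1 was so marked, in all FGR libraries and 1 from Ctrl, and of 3 border macrophage markers only Mrc1, in 1 FGR library. The part of cells other than microglia in the results was not tested.

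RefSeq start sites of build GRCm38.p6, which shares its coordinates with mm10, were listed for 6 of the 10 genes, with 10 start sites in all. Elmo3, Dock5, Rac1 and Rac2 had no entry. The 250 bases upstream of 6 of these starts follow, because the peak maps turn on them. The first pair are the starts of Elmo1, one with a peak in 7 libraries and one with none. The second pair are the 2 starts of Dock10, of which the inner one carried the stronger peaks. The starts of Dock2 and Dock8 had a peak in every library. Capitals mark GC boxes (GGGCGG on either strand) and the TATA letters (TATAAA on either strand).
Elmo1 first start, chr13:20090257-20090506, plus strand: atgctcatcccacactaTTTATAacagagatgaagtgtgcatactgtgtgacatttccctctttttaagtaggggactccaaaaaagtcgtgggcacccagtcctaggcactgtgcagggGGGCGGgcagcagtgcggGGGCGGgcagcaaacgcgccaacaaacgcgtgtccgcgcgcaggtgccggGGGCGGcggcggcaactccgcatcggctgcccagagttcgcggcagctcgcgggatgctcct
Elmo1 inner start, chr13:20472740-20472989, plus strand: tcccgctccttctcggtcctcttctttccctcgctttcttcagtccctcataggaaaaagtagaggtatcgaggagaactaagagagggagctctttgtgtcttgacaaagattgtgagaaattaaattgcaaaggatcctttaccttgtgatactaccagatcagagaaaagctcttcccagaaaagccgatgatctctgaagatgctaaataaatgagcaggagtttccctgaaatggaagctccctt
Dock10 outer start, chr1:80758554-80758803, minus strand: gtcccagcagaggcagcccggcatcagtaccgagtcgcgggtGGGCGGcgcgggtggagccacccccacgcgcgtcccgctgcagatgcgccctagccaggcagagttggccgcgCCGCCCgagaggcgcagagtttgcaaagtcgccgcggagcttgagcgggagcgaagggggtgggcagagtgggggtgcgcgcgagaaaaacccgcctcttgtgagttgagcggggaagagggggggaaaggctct
Dock10 inner start, chr1:80665353-80665602, minus strand: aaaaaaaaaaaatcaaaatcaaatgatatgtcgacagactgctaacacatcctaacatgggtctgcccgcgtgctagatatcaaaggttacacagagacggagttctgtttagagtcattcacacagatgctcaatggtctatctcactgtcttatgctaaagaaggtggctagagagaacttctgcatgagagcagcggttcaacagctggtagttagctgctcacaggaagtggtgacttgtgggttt
Dock2 start, chr11:34783906-34784155, minus strand: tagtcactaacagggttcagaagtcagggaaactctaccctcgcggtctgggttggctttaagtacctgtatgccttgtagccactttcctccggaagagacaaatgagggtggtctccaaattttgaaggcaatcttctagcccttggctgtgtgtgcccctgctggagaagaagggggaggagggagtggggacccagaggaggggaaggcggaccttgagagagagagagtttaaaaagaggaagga
Dock8 start, chr19:24999279-24999528, plus strand: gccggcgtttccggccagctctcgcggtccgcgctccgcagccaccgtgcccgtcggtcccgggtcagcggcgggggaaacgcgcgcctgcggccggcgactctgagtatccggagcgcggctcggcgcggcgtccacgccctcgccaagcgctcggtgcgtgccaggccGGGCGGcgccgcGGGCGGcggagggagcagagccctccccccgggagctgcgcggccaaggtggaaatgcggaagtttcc

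The upstream sequences fell into GC-rich and AT-richer ones. Elmo1 first start had 61.6% GC with 21 CpG, the Dock10 outer start 70.4% with 27, and the Dock8 start 77.6% with 43. The inner starts of Elmo1 and Dock10 had 43.6% and 43.2% GC, each with 5 CpG, and the Dock2 start had 52.8% with 4. Over all 32851 start sites in the table the median was 52.4% GC with 6 CpG. The 3 GC boxes of the Elmo1 first start begin 130, 112 and 62 bases before it, all on the strand shown, and its TATA letters lie on the opposite strand at 233 bases. At least 1 GC box stood before 5 of the 10 member starts and 32.7% of all starts. The CCAAT letters stood before 1 of 10 (the main Elmo2 start) and 33.8% of all, and TATAAA before 2 of 10 and 12.4% of all. CCGGAAGT (an ETS factor motif), GAGGAAGT (a PU.1 motif), TGANTCA (an AP-1 motif) and an IRF factor motif stood before none of the 10, and before 2.88%, 2.44%, 6.75% and 2.98% of all starts. A match of letters is a description of the window, not a bound site.

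Summed over the 8 libraries, the Elmo1 locus held more peaks than any other member locus. In order of replicate number it had 4, 1, 8 and 9 peaks in the Ctrl libraries and 16, 13, 18 and 18 in the FGR libraries, and every FGR library lay above every Ctrl library. Relative to list length these were 2.48, 0.921, 3.52 and 3.72 per 10000 peaks in Ctrl and 5.88, 5.57, 6.1 and 6.86 in FGR, and again the groups did not overlap. The means were 2.66 ± 1.28 and 6.1 ± 0.548 (SD, n = 4 libraries). Among replicates 3 and 4, whose Ctrl lists are not short, the locus had 8 and 9 peaks in Ctrl and 18 in each FGR library. Without Ctrl replicates 1 and 2 the log2 difference in peaks per 10000 was 0.71 ± 0.14 (SE), against 1.19 ± 0.22 over all 8 libraries. By block it was 1.59 in replicates 1 and 2 and 0.79 in replicates 3 and 4.

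**Figure D1:**
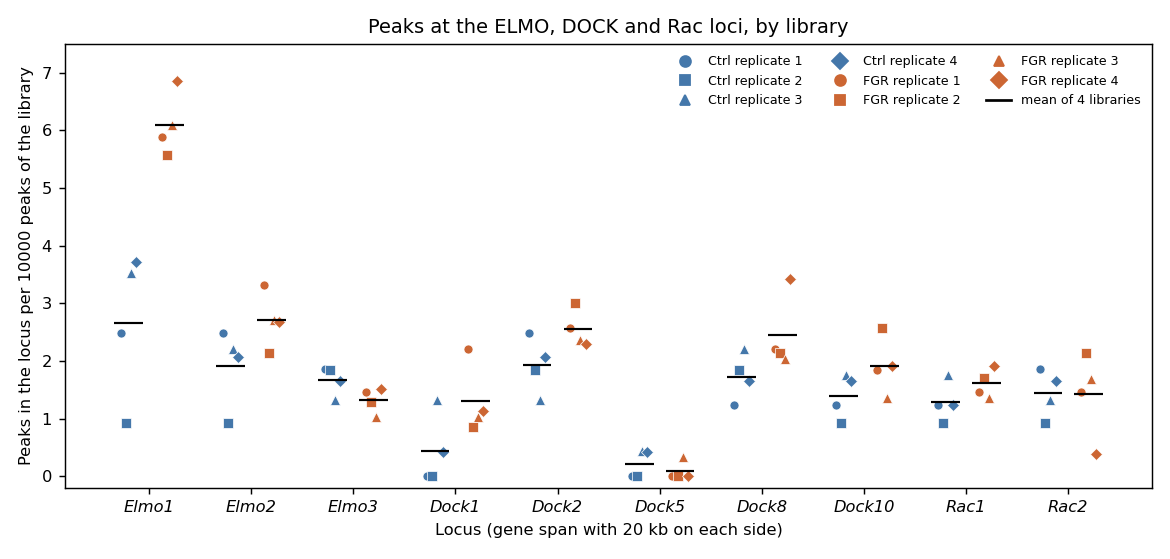
Peaks in each member locus per 10000 peaks of the library (y axis), with Ctrl libraries in blue, FGR libraries in orange, 1 symbol per replicate number and a bar at the mean of 4 libraries. At Elmo1 the FGR libraries sit between 5.57 and 6.86, above the Ctrl libraries at 0.921 to 3.72, while the groups overlap at the other 9 loci.

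Per length, the order of the loci was different. Elmo1, whose span of 517.8 kb lies on chromosome 13 from 20090507 to 20608353, had a median of 1.97 peaks per 100 kb over the 8 libraries. The short loci of Elmo3, Rac2, Rac1 and Elmo2 had medians of 6.64, 6.53, 6.39 and 6.37 per 100 kb, in which the 40 kb of flanks weigh heavily. Dock8 had 2.06, Dock10 1.34, Dock2 0.921 and Dock1 0.46 per 100 kb, and Dock5 a median of 0. Elmo1 and Dock8 were thus close in density, and Dock1, with a span of 503 kb nearly that of Elmo1, held peaks far more thinly.

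All 29 regions of the Elmo1 locus touched the gene, and 22 of them lay in the first 258.9 kb of its span, before its midpoint. That stretch held 3, 1, 7 and 8 peaks in Ctrl and 12, 10, 15 and 15 in FGR, against 1, 0, 1 and 1 and 4, 3, 3 and 3 after the midpoint. The nearest regions beyond the 20 kb flanks lay 40.5 kb before and 185.7 kb after the span. Exons were not listed in the annotation used, so that exonic and intronic places cannot be told apart.

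A single Elmo1 region was called in all 8 libraries, at 20313074 to 20313924, 222.6 kb into the gene and far from either listed start. Ranked within each list by −log10 q, its peak stood at percentiles 53.5, 56.3, 74.6 and 65.7 in Ctrl and 85.9, 79.8, 91.5 and 83.2 in FGR, where −log10 q is the authors' measure of how far a peak exceeds its background. Ranks come from lists of different length and show no change in accessibility by themselves. Every FGR percentile was above every Ctrl percentile here, as at 4 of the 10 member regions called in all libraries and at 9.9% of all 8840 such regions. The first start, shown above, lay under a region from 20090183 to 20091806 that was called in 3 Ctrl and 4 FGR libraries, at percentiles 33.4 to 67.2 in Ctrl and 51.3 to 70 in FGR. Ctrl replicate 2, the shortest list, was the one without it. A region 30 kb into the gene (20120466 to 20121170) had the same libraries, at percentiles 22.6 to 57.8 and 58.9 to 70.5.

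At Elmo1, 17 regions were called in at least 1 FGR and no Ctrl library, 4 in Ctrl only and 8 in both groups. All 4 FGR libraries held 2 of the 17. The first, at 20127638 to 20127926, stood at percentiles 20, 59.2, 57.8 and 35.2 in FGR replicates 1 to 4, and the nearest Ctrl peak was 6468 bp away. The second, at 20207101 to 20207481, stood at 47.9, 53.7, 38.9 and 36.8, with the nearest Ctrl peak 716 bp away. Both were thus of low to middling rank, between percentiles 20 and 59.2 over the FGR lists. When each list was reduced to its 10862 strongest peaks, each was left in 1 FGR library and no Ctrl library.

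Another 4 Elmo1 regions were found in 3 FGR lists and in none from Ctrl. The strongest of them, at 20140095 to 20140379, stood at percentiles 79.2, 77.2 and 70.3 in FGR replicates 1, 3 and 4 and was not called in FGR replicate 2. A region at 20231996 to 20232443 was called in all FGR libraries at 47.5 to 76.4 and in Ctrl replicate 3 alone at 35.2. The 26 peaks of the 15 regions in 1 to 3 FGR and no Ctrl libraries, the strongest region included, had a median percentile of 20. They ranged from 1.94 to 79.2. The 4 peaks seen in Ctrl only had a median of 13.1. Among those 4, the Ctrl replicate 4 peak at 20184531 to 20184783 ended at the base before a region called in 3 FGR libraries (20184784 to 20185544). Sharing no base, they were counted apart, so that region is not evidence of a place without a Ctrl peak. The inner start of Elmo1, shown above, had no peak within 1 kb in any library. The closest region before it, 378.1 kb into the gene, was called in FGR replicates 2 and 4.

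**Figure D2:**
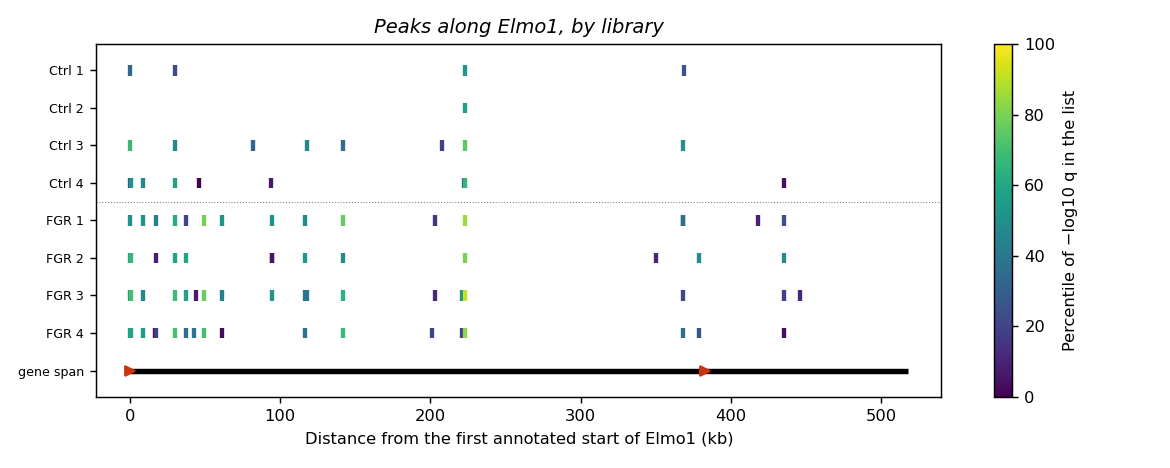
Position of every peak along Elmo1 (x axis, distance from its first start in kb) in each library (rows), coloured by the peak's percentile of −log10 q in its own list, with the gene span as a black bar and the 2 listed starts as red arrowheads. Of 29 regions, 22 lie before the midpoint, the place at 222.6 kb is called in all 8 libraries, and FGR rows hold 13 to 18 peaks against 1 to 9 in Ctrl rows.

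Elmo2 encodes a widely expressed relative of ELMO1 (chromosome 2, 165288031 to 165326479). Its locus held 4, 1, 5 and 5 peaks in Ctrl and 9, 5, 8 and 7 in FGR, or 1.92 ± 0.687 and 2.71 ± 0.476 per 10000 peaks (SD, n = 4 libraries). The groups met at 5 peaks and overlapped per 10000. Its outermost start carried a peak in every library, at percentiles 67.9 to 94.1 in Ctrl and 78.2 to 93.2 in FGR, the highest median (82.6) of all member starts. A second listed start had a peak within 1 kb in 3 Ctrl and 4 FGR libraries, and the third in Ctrl replicates 1 and 4 only. The region at the third start, 165319450 to 165319874, was also called in Ctrl replicate 3 and FGR replicate 1. Their peaks ended just outside the 1 kb limit, so this start does not set the groups apart. The locus held a region found in every FGR list and absent from Ctrl, at 165285703 to 165286166 and percentiles 43.8 to 73.3. That region lies inside the neighbouring gene Slc35c2, 1865 bp beyond the Elmo2 span. With the flanks left out, the Elmo2 log2 difference of 0.42 ± 0.23 became -0.12 ± 0.26 (SE).

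Elmo3 encodes the ELMO protein best known from epithelial cells (chromosome 8, 105305461 to 105310623). Its locus held 3, 2, 3 and 4 peaks in Ctrl and 4, 3, 3 and 4 in FGR, and none of its 4 regions touched the gene. The 2 regions called in all 8 libraries overlapped the neighbours 4931428F04Rik and Lrrc29, and the other 2 overlapped E2f4, a cell cycle transcription factor gene. The one nearest to Elmo3, 411 bp from its span (105304540 to 105305050), was called in 1 Ctrl library at percentile 6.88 and in 4 FGR libraries at 23.1 to 65.1. Per 10000 peaks the locus had 1.67 ± 0.25 in Ctrl and 1.32 ± 0.229 in FGR (SD, n = 4 libraries). The log2 difference was -0.38 ± 0.25 (SE), and 0.21 without division by list length, so its direction depends on the scaling.

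Dock2 encodes the Rac exchange factor of blood cells and their relatives (chromosome 11, 34226815 to 34783905). Its locus held 4, 2, 3 and 5 peaks in Ctrl and 7, 7, 7 and 6 in FGR, and every FGR count was above every Ctrl count. Per 10000 peaks the values were 2.48, 1.84, 1.32 and 2.07 in Ctrl and 2.57, 3, 2.37 and 2.29 in FGR, where the groups overlapped. The start was called in all libraries, at percentiles 53.6, 34, 73.4 and 83.1 in Ctrl and 65.8, 62, 76.5 and 70.8 in FGR. A region 393.9 kb into the gene, at 34389331 to 34389989, was called in all but Ctrl replicate 2, at percentiles 54.7 to 88.5. It lies within Insyn2b, a gene nested in Dock2.

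Near the start of Dock2 lay 2 further regions found in 2 Ctrl and 4 FGR libraries. The region 5.3 kb in (34778224 to 34778620) was called in Ctrl replicates 1 and 4 at percentiles 20.7 and 30.5 and in all FGR libraries at 69 to 87.9. The region 12.2 kb in (34771054 to 34771666) was called in Ctrl replicates 2 and 4 at 22.2 and 30.7 and in all FGR libraries at 41.4 to 70.9. The other 10 regions of the locus were each called in a single library.

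Dock1 encodes the broadly expressed partner of ELMO (chromosome 7, 134670687 to 135173647). Its locus held 0, 0, 3 and 1 peaks in Ctrl and 6, 2, 3 and 3 in FGR, and Ctrl replicate 3 overlapped FGR. The start was called in 2 libraries of each group, at percentiles 67.4 and 12.9 in Ctrl and 24.2 and 2.35 in FGR. Of its 12 regions, 8 were called in 1 library each and none in more than 4. The 11 peaks of its 9 FGR-only regions had a median percentile of 18. The log2 difference of 1.22 ± 0.48 (SE) was 0.54 ± 0.39 without Ctrl replicates 1 and 2, which had no peak, and 0.36 ± 0.39 with FGR replicates 1 and 2 left out as well.

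Dock5, which encodes another Rac exchange factor of the same branch, had a single region in its locus (chromosome 14, 67751928 to 67933572), at one end of the gene. It was called in Ctrl replicates 3 and 4 and FGR replicate 3, at percentiles 7.36, 37.2 and 25.4. A mean of 0.375 peaks per library kept this locus out of the fit across loci, which required 2.

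**Figure D3:**
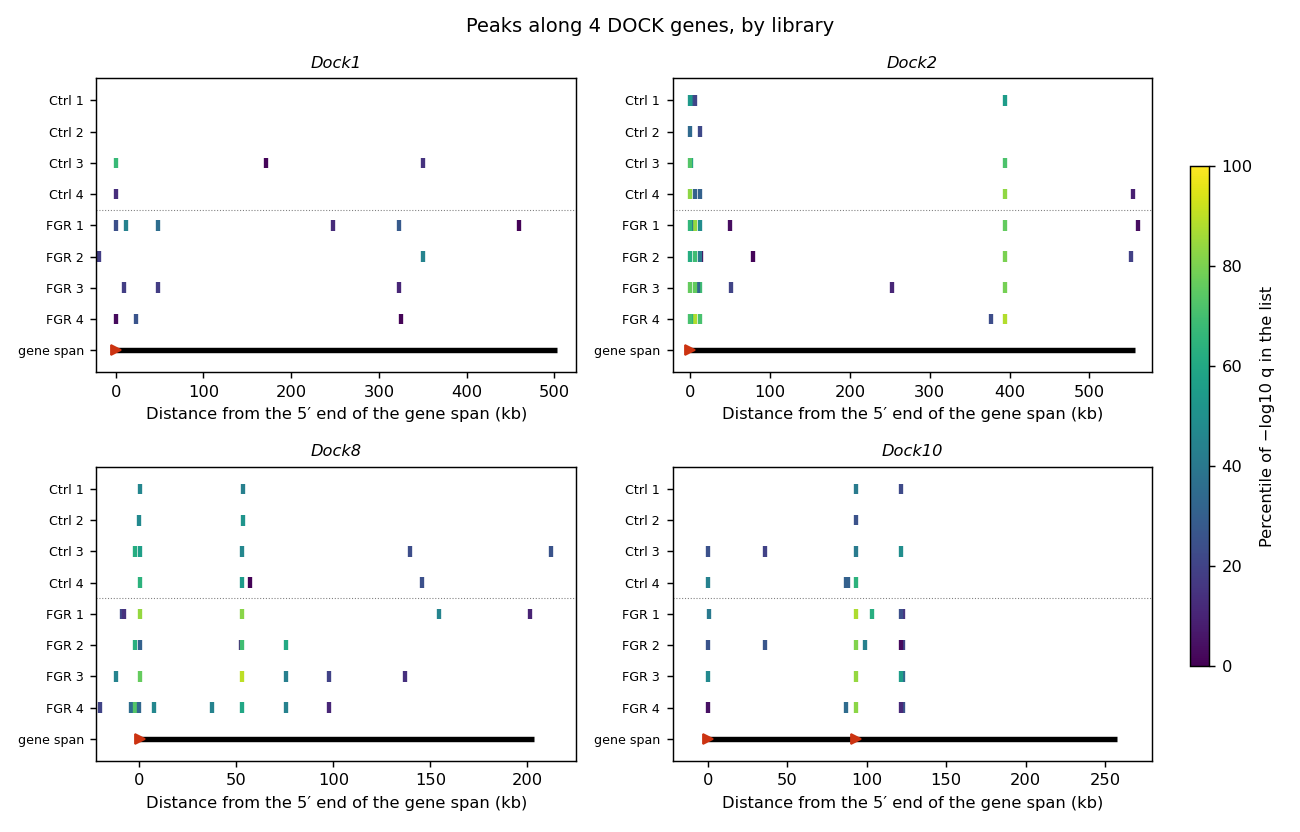
Position of every peak along Dock1, Dock2, Dock8 and Dock10 (x axes, distance from the 5′ end of the gene span in kb) in each library (rows), coloured by percentile of −log10 q within the list, with spans as black bars and listed starts as red arrowheads. The starts of Dock2 and Dock8, the inner start of Dock10 and a place 53 kb into Dock8 are called in all 8 libraries, while Dock1 holds scattered peaks.

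Dock8 encodes a Cdc42 exchange factor needed for leukocyte migration (chromosome 19, 24999321 to 25202432). Its locus held 2, 2, 5 and 4 peaks in Ctrl and 6, 5, 6 and 9 in FGR, or 1.73 ± 0.4 and 2.45 ± 0.655 per 10000 peaks (SD, n = 4 libraries), with overlap per 10000. Of its 20 regions 15 were called in 1 library each, the largest such number among the members. The start was called in all libraries at percentiles 30.7 to 84.1, without separation of the groups. The second constant region, 53 kb into the gene at 25052288 to 25052728, stood at percentiles 43.1, 51.8, 46.3 and 54.4 in Ctrl and 82.4, 69.5, 90.2 and 59.4 in FGR, which did not overlap. A region at 25074714 to 25075182 was called in FGR replicates 2, 3 and 4 at 42.7 to 60.2 and in no Ctrl library. A region found in 4 FGR libraries and no Ctrl library lay just outside the limit, 27.7 kb before the span at 24971340 to 24971636, and was not counted. The last region inside the limit on that side, 19898 bp from the span, was called in FGR replicate 4 alone at percentile 20.

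Dock10 encodes another DOCK protein of the Cdc42 branches (chromosome 1, 80501068 to 80758765). Its locus held 2, 1, 4 and 4 peaks in Ctrl and 5, 6, 4 and 5 in FGR, or 1.39 ± 0.387 and 1.92 ± 0.5 per 10000 peaks (SD, n = 4 libraries), and the groups overlapped. The peak at the GC-rich outer start was called in Ctrl replicates 3 and 4 and in all FGR libraries, at percentiles 4.2 to 46.9. The peak at the inner start, 93413 bp from the 5′ end of the span, was called in all 8 libraries. It stood at percentiles 41.2, 25.2, 41.2 and 64.2 in Ctrl and 87.6, 81, 84.2 and 82.7 in FGR, with no overlap. A region 122.7 kb into the gene, at 80635582 to 80636072, was held by every FGR list and no Ctrl list at low percentiles of 15.2 to 34. No peak of it reached a −log10 q of 5. In replicates 3 and 4 alone the Dock10 log2 difference was -0.1 ± 0.29 (SE), against 0.3 ± 0.25 over all 8.

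Rac1, the GTPase on which the ELMO and DOCK complex acts (chromosome 5, 143505481 to 143528031), had 2, 1, 4 and 3 peaks in its locus in Ctrl and 4, 4, 4 and 5 in FGR, or 1.29 ± 0.348 and 1.61 ± 0.246 per 10000 peaks (SD, n = 4 libraries). The counts touched at 4. A peak at one gene end, at 143527453 to 143528432, was called in all libraries, at percentiles 31.5 to 73.5 in Ctrl and 41.6 to 72.1 in FGR, which overlapped. A region inside the neighbour Daglb (143489873 to 143490337) was called in 7 libraries. With the flanks left out the Rac1 log2 difference of 0.18 ± 0.24 became -0.38 ± 0.43 (SE).

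Rac2 (chromosome 15, 78559169 to 78572783) had 3, 1, 3 and 4 peaks in its locus in Ctrl and 4, 5, 5 and 1 in FGR, and FGR replicate 4 was as low as Ctrl replicate 2. Per 10000 peaks the means were 1.44 ± 0.411 and 1.42 ± 0.749 (SD, n = 4 libraries). The regions at and near one gene end (78571377 to 78572227 and 78572502 to 78573014) and another 8503 bp beyond the gene were each missing from FGR replicate 4. The region called in all libraries lay 16092 bp beyond the gene at 78588875 to 78589381, nearer to Cyth4 (7666 bp). It stood at percentiles 59.7, 33.6, 80.3 and 87 in Ctrl and 89.1 to 92.2 in FGR, and so did not overlap between the groups. In replicates 3 and 4 alone the Rac2 log2 difference was -0.71 ± 0.41 (SE), with that FGR library in it. Over all 8 it was -0.26 ± 0.31, and it was 0.33 without division by list length and 0.18 ± 0.28 without FGR replicate 4. Its direction thus depends on the scaling and on that library.

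Across the family, 5 of 10 genes (Elmo2, Dock2, Dock8, Dock10 and Rac1) had a peak within 1 kb of a start, or of a gene end where no start was listed, in all 8 libraries. Of all protein-coding genes 33% had one. Elmo1 missed only Ctrl replicate 2, and Rac2 missed Ctrl replicate 2 and FGR replicate 4. Elmo3, Dock1 and Dock5 had one in 5, 4 and 3 libraries. No member had such a peak in all libraries of one group and none of the other. With peaks of −log10 q of at least 5, 2 of 10 members (Elmo2 and Dock8) had one in all 8, beside 25% of all genes. With lists cut to equal length it was again 2 (Elmo2 and Dock2), beside 22.3% of all genes, and under neither setting was the share in members above that of all genes. With a limit of 100 bp in place of 1 kb the number was 4 of 10 (Elmo2, Dock2, Dock8 and Rac1), beside 28.9% of all genes.

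Of the 112 member regions, 52 (46.4%) were called in 1 library and 10 (8.93%) in all 8, beside 45.9% and 16.9% of all 52177 regions. In the members, 60 regions (53.6%) were called in FGR only, 11 (9.82%) in Ctrl only and 41 (36.6%) in both. Of all regions, 42.3% were in FGR only, 14.9% in Ctrl only and 42.8% in both, so that FGR-only regions outnumbered Ctrl-only ones over the genome as well. The 4 regions found in every FGR but no Ctrl list were the 2 of Elmo1 and 1 each of Elmo2 and Dock10, described above. None had the reverse pattern. Over the whole genome 452 regions, 0.866% of all, had the FGR pattern, and 2.56% of protein-coding loci held at least 1, as 3 of the 10 member loci did. Since Elmo1 was chosen for its FGR peaks, nothing is read from these shares. With lists cut to equal length 1 of 32 member regions had that pattern, beside 128 of 17694 regions in all. Without Ctrl replicate 4 it was 7 of 106, beside 1.82% of all regions, and without FGR replicate 2 it was 8 of 104, beside 1.62%.

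A limma fit of log2 peaks per 10000 covered the 8034 loci averaging 2 or more peaks, among them 9 of the 10 members. It called 0.0124% of these loci, which is the Elmo1 locus alone. As the family was chosen on that value, the call is stated as a description of the choice, and nothing is read from it. It treats the 8 libraries as independent. With replicates averaged in pairs (1 with 3, 2 with 4) in both groups, a pairing seen in FGR summits alone, the call was absent. It was also absent with equal-length lists, with −log10 q of at least 5, without scaling, with the gene span alone and in replicates 3 and 4 alone. Leaving out Ctrl replicates 1 and 2 together, Ctrl replicate 1, or FGR replicate 2, 3 or 4 removed it too. Differences of FGR minus Ctrl were positive for 7 of the 9, with a median of 0.33, and 0.31 for the 8 without Elmo1. Over all 8034 loci the median was -0.28, and 6225 differences were negative. Without division by list length the medians were 0.92 for the 9 members and 0.31 for all loci. Counts did not overlap, with FGR higher, at Elmo1 and Dock2, and per 10000 peaks at Elmo1 alone, beside 4.12% and 1.46% of all loci. At no member was every FGR library below every Ctrl library per 10000 peaks, beside 5.8% of all loci.

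**Figure D4:**
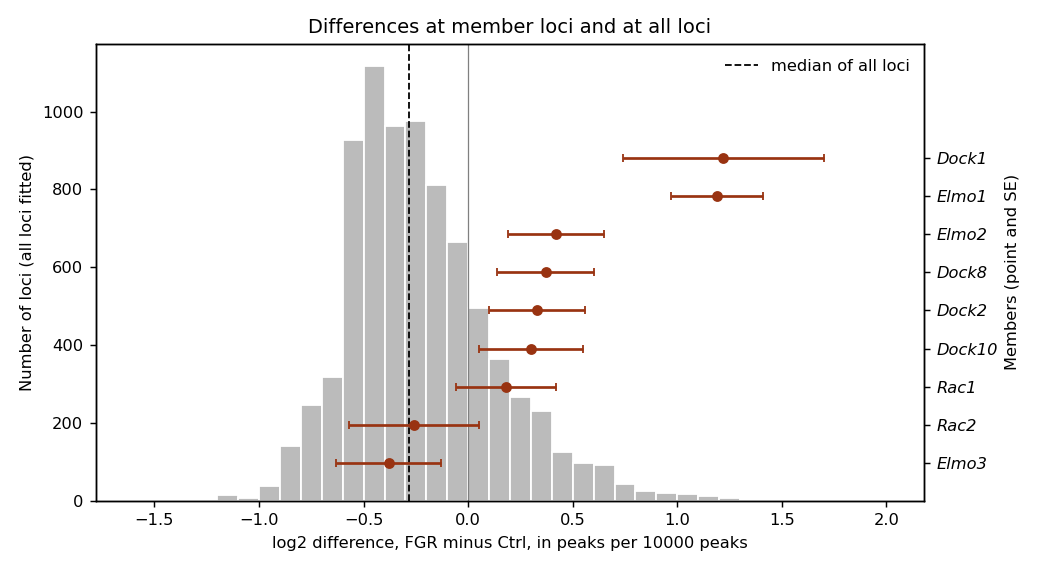
Histogram of log2 differences (FGR minus Ctrl) in peaks per 10000 over the 8034 loci fitted (left axis, dashed line at their median of -0.28), with the 9 fitted members as points and bars of 1 SE (right axis). Dock1 at 1.22 and Elmo1 at 1.19 lie at the upper edge, the former with an SE of 0.48, while Elmo3 and Rac2 lie near the median.

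Other genes of the pathway were taken from lists written with earlier results of these data known. No locus of the lists given here passed the limma threshold, in either direction. At an unadjusted p under 0.05, 2 receptor or adaptor loci and 2 inhibitor loci were higher in FGR, and 1 DOCK, 1 activator, 1 inhibitor and 2 effector loci were lower. Of all 8034 loci fitted, 209 were higher and 1256 lower at that threshold, so nothing is read from these counts. Median log2 differences were -0.07 for 5 fitted loci of other DOCK genes, -0.18 for 13 of engulfment receptors, bridging proteins and adaptors, -0.18 for 8 of other Rac activators, 0.01 for 8 of Rac inhibitors and -0.27 for 16 of Rac effectors. Dock3, a neuronal DOCK gene named after its value was seen, had 3, 2, 5 and 4 peaks in Ctrl and 3, 2, 3 and 2 in FGR, which gave -0.96 ± 0.25 on the log2 scale (SE, adjusted p = 0.118, limma).

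Of the listed genes outside the family, Chn2, whose product β2-chimaerin switches Rac off, held 2 regions present in every FGR list and no Ctrl list, on chromosome 6 at 54119930 to 54120258 (percentiles 68.2 to 70.3) and 54160700 to 54161045 (59.7 to 68.2). Such a region was held by 1 of 12 listed Rac inhibitors (Chn2), 1 of 23 Rac effectors and no gene of the other lists given here. The share over all protein-coding loci was 2.56%, and nothing is read from the listed genes that held one. The Chn2 locus held 8, 4, 8 and 10 peaks in Ctrl and 14, 11, 16 and 13 in FGR. As counts the groups did not overlap, as at 4.12% of all loci fitted. Per 10000 peaks they overlapped, with 4.97 in Ctrl replicate 1 against 4.72 in FGR replicate 2. The log2 difference per 10000 was 0.27 ± 0.16 (SE, adjusted p = 0.323, limma).

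The loci most like Elmo1 were sought by the Pearson correlation of log2 peaks per 10000 over the 8 libraries, among 924 loci averaging 5 or more peaks. They were Zdhhc14 (r = 0.985), a palmitoyltransferase gene, Rgs3 (0.957), a regulator of G protein signalling, Frmd4a (0.955), Hdac9 (0.936), a histone deacetylase gene, and Itgb5 (0.934), the β5 integrin gene. Within a library all loci were divided by the same list length, and list length differed between libraries. All 5 loci had their lowest count in Ctrl replicate 2, so the coefficients are given as a description. Hdac9 had 3, 0, 4 and 5 peaks in Ctrl and 11, 5, 10 and 10 in FGR, or 1.24 ± 0.32 on the log2 scale per 10000 (SE, adjusted p = 0.118, limma). Itgb5, which is also on the list of engulfment receptors, had 5, 1, 9 and 9 in Ctrl and 11, 11, 13 and 13 in FGR, or 0.67 ± 0.23 (SE, adjusted p = 0.189, limma). Elmo1 was chosen for its FGR peaks, so loci picked for likeness to it lean the same way by that choice. Nothing is read from their differences between the groups.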

How the data were processed

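ATAC-seq peak lists of 8 libraries, 4 Ctrl and 4 FGR, were used as deposited. Per the submitters' processing notes, the build was mm10 and the tools were MACS2 2.2.7.1, a peak caller, DiffBind 3.12.0, Bowtie2 2.4.5, Trim Galore 0.6.5 and SAMtools 1.3.1, with no role or setting stated. The labels' protocols name a Vazyme transposition kit. Read shifting and duplicate removal were not given in the sources used here. Per the file layout, each deposited list gives the authors' score (unused), fold ratio, −log10 p and −log10 q for each peak. These were used only to rank or filter peaks within a list. As peaks were called for each library separately, the number called depends on depth and quality, and weak regions come and go.

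Gene spans and start sites came from RefSeq tables of GRCm38.p6. Start sites were listed for 17491 of 21883 genes, and both gene ends served for the others. Regions are peaks merged when sharing at least 1 bp. Peaks per locus, as log2 of peaks plus 0.5 per 10000, were fitted with limma 3.58.1 (R 4.3.3, with a trend, all 8 libraries, Benjamini-Hochberg over 8034 loci, threshold 0.05). The fit was tested on simulated data. The protein comparison planned was not run. Other steps used Python 3.11.15 with numpy 2.4.6, pandas 2.3.3 and matplotlib 3.10.9.

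The members, lists and tests were chosen with earlier results of these data known. Named genes were the 10 members, listed pathway genes that passed the test or held a region called in all libraries of one group and none of the other, and the 5 loci most like Elmo1. Some listed genes are not reported here. Alternatives covered thresholds, list length, scaling, pseudocount, flanks and left-out libraries.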

Additional observations from a re-analysis of the deposited data

Results flagged for a closer look

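In 34 groups of 4 libraries examined, 2 had a library far from the other 3, where about 1 in 20 such groups is so by chance. The Dock8 locus held 3.43 peaks per 10000 in FGR replicate 4, against 2.03 to 2.21 in the other FGR libraries. That library had 9 peaks there, 4 of them in regions that no other library held, and FGR replicate 1 likewise had 4 such regions among its 6 peaks. The Dock5 locus held 0.339 per 10000 in FGR replicate 3, a single peak, against 0 in the other FGR libraries. Any peak in 1 library alone is flagged by this rule, so the rate of 1 in 20 does not apply to Dock5.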

How the results depend on the processing

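Peak counts per locus are small, and only large differences were detectable. The log2 difference at Elmo1 kept its sign in all 18 alternatives, from 0.71 to 1.78. Since the groups did not overlap at this locus, leaving out libraries could not change that sign. The family was also chosen on this difference, so nothing is read from the sign. The signs of Dock1, Dock2 and Dock8 also held in every alternative in which they could be fitted. Those of Elmo2, Elmo3, Dock10, Rac1 and Rac2 changed in at least 1. The number of loci called higher and lower in FGR was 1 and 0, with 209 and 1256 at an unadjusted p under 0.05. It was 13 and 7 with equal-length lists, 10 and 1 without scaling, 7 and 50 with a pseudocount of 1, and 7 and 9 without a filter on low values. No locus was called (0 and 0) with gene spans alone, without Ctrl replicates 1 and 2, in replicates 3 and 4 alone or with replicates 1 and 3, and 2 and 4, averaged in each group, with 103 to 269 higher and 129 to 1233 lower at an unadjusted p under 0.05. With −log10 q of at least 5 the counts were 1 and 0, and the locus called was not Elmo1. Leaving out 1 library gave 0 to 8 higher and 0 to 7 lower. With the replicate block the counts were 54 and 87, Elmo1 among them. Same-numbered libraries had deviations from their group means correlated at -0.0181, 0.0976, 0.0674 and 0.0291. Ctrl 2 and 3 and FGR 2 and 4 correlated best with their own number, and Ctrl 1 and 4 and FGR 1 and 3 did not. With so few libraries in a group, these values cannot tell whether same-numbered libraries share more than a number. Member regions in every FGR but no Ctrl list numbered 4, 1 with equal-length lists and 4 to 8 with 1 library left out. In replicates 3 and 4 alone, an alternative chosen after seeing the data, there were 11 of 91, and 1 the other way, beside 1598 and 635 of all 44066 regions. Members with a start-site peak in all libraries numbered 5, 4 within 100 bp, and 2 either with −log10 q of at least 5 or with equal-length lists. The causes of these changes were not tested.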
